A study of Mus musculus with 8 samples.

Results

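The myogenic regulators are the transcription factors that set and hold skeletal muscle fate: the paired-box factors Pax3 and Pax7, the basic helix-loop-helix factors Myf5, Myod1, Myog and Myf6, and the MADS-box factors Mef2a, Mef2b, Mef2c and Mef2d. They were taken by name, and all 10 were found among the 22552 genes of the mRNA table. The tissue was brown adipose tissue, the heat-producing fat, with no depot named in the labels, from mice 2 months old on a mixed 129SV::FVB/N::C57BL/6 background. Null mice were mmu-mir-193b -/- and, by the series' title, also lacked mir-365-1. WT mice were mmu-mir-193b +/+. The mRNA libraries came from 3 Null and 3 WT samples, and small RNA libraries from 1 Null and 1 WT sample. The lines were bred from a floxed mir-193b allele through females that carried MMTV-Cre, a Cre transgene driven by a mammary tumour virus promoter, which was then bred out, so the loss is not described as limited to fat. The authors gave 1 FPKM value per genotype, a count of fragments set per length of transcript and per mapped total. These are called the Null pool and the WT pool here. They carry no spread between mice, no test was possible, and no neighbours in any order of levels below can be called different beyond their spread.

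Pax3 and Pax7 mark muscle progenitors and satellite cells, the stem cells of muscle, and switch on Myf5 and Myod1. Myf5 and Myod1 commit a cell to muscle, Myog drives its fusion and terminal differentiation, and Myf6 (MRF4) is the member of that family that stays abundant in adult fibres. Mef2 proteins cannot start the programme alone but act with the helix-loop-helix factors on muscle genes, and they also work in vessels, nerve, heart and blood cells. Brown fat cells share a Myf5-expressing precursor lineage with muscle, and the deleted cluster was proposed to hold the muscle programme down in them, which is why these genes were examined.

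The deleted microRNAs and those made in muscle are shown first, since they are the second readout of the same question. Capitals mark the seed, bases 2 to 8 from the 5′ end, through which a microRNA chooses its targets. The sequences are from RefSeq (GRCm38.p6).

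miR-193b-3p: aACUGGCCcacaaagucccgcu
miR-193a-3p: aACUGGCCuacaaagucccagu
miR-365-3p: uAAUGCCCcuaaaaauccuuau
miR-206-3p: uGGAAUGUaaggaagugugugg
miR-133b-3p: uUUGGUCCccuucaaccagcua
miR-208b-3p: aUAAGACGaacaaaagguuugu
miR-499-5p: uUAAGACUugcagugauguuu

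miR-193a-3p, made from another locus, has the seed of miR-193b-3p and matches it at 19 of 22 bases. miR-365-3p is the same molecule whether made from the mir-365-1 or the mir-365-2 hairpin. The seeds of miR-206-3p, miR-133b-3p, miR-208b-3p and miR-499-5p are none of them that of a deleted microRNA. miR-1a-3p, miR-133a-3p and miR-486-5p, the other muscle microRNAs measured, are given by name.

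The deletion was visible in the small RNA libraries. miR-193b-3p stood at 11.5 RPM in the Null library (95% exact Poisson interval 10.2 to 13.0), while the WT library held 3705 RPM (3680 to 3730). RPM is the unit in the authors' header, and the intervals cover counting error only. The level of miR-365-3p was 798 RPM in Null and 1442 RPM in WT, and miR-193a-3p was at 4067 RPM in Null and 3857 RPM in WT. The other strands were scarcer. miR-193b-5p had 0.082 RPM in Null and 37.9 RPM in WT. From the mir-365-1 hairpin, miR-365-1-5p had 0.082 RPM in Null and 11.8 RPM in WT. From the mir-365-2 hairpin, miR-365-2-5p had 17.9 RPM in Null and 9.37 RPM in WT.

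No member of the muscle programme was higher by 2-fold in the tissue without the cluster. Only 4 of the 10 had a mean of at least 1 FPKM, and of all genes with such a mean 2.17% were higher by 2-fold, so 0 of 4 is close to that share. Of the 10 genes, 8 had a lower value in the Null pool than in the WT pool and 2 a higher one, Mef2b and Mef2c, of which Mef2c was lower once the columns were scaled to equal sums. The 10 members together summed to 39.7 FPKM in the Null pool and 69.6 FPKM in the WT pool, and Mef2 genes made up nearly all of it. The factors that commit cells to muscle lay below the median gene of the table in both genotypes.

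**Figure D1:**
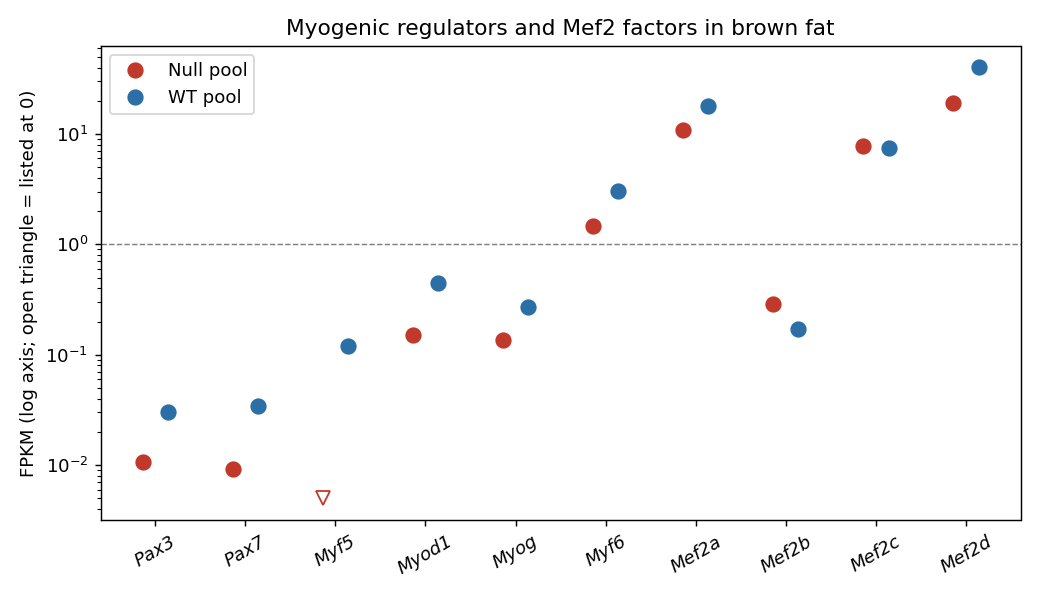
Level of each of the 10 genes in the Null pool (red, left) and the WT pool (blue, right), in FPKM on a log axis, with 1 authors' value per genotype and no error bar. The dashed line is at 1 FPKM: 4 genes lie above it in both pools, and Myf5 in Null is listed at 0.

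The progenitor factors, first in the cascade, were among the least abundant. Pax3 had 0.0106 FPKM in the Null pool and 0.0304 FPKM in the WT pool. Pax7, the satellite cell factor, had 0.00923 FPKM in the Null pool and 0.0346 FPKM in the WT pool. In each pool the levels of Pax3 and Pax7 lay within 1.15-fold of each other, and their order was opposite in the pools. Both were lower in Null on this scale, to 34.9% and 26.7% of WT, but values this small can rest on few fragments, and the number behind them is not known.

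Myf5, the first helix-loop-helix factor of the cascade and the marker of the shared lineage, was listed at 0 in the Null pool and at 0.120 FPKM in the WT pool. An entry of 0 is not proof of absence: of 5751 genes with a mean above 0 and under 1 FPKM, 13.3% were listed at 0 in Null. Myod1, which can convert other cell types to muscle, had 0.152 FPKM in the Null pool and 0.442 FPKM in the WT pool. Myog, the differentiation factor, had 0.136 FPKM in the Null pool and 0.272 FPKM in the WT pool. The median gene of the table was at 1.20 FPKM in Null and 1.13 FPKM in WT, so all 3 lay below it in both pools. Myod1 was above 37.5% of the genes in Null and 44.0% of the genes in WT, and 6016 genes were listed at 0 in Null and 5796 in WT.

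Myf6 was the most abundant of the 4 helix-loop-helix factors in both pools. It had 1.48 FPKM in the Null pool and 3.02 FPKM in the WT pool, and made up 83.7% of the summed level of the 4 factors in Null and 78.4% in WT. Its level was 9.73 times that of Myod1 in Null and 6.83 times in WT, and 10.9 times that of Myog in Null and 11.1 times in WT. Myf6 is the neighbour of Myf5 among protein-coding genes on chromosome 10 in the GRCm38.p6 annotation, yet the pair differed widely in level in each pool. The 4 factors summed to 1.77 FPKM in the Null pool and 3.86 FPKM in the WT pool, and all 4 were lower in Null.

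Mef2d and Mef2a were the abundant members and both were lower in Null. Mef2d, the most abundant of the 10 genes in each pool, had 19.0 FPKM in the Null pool and 40.1 FPKM in the WT pool, which is 47.5% of WT. Mef2a, which like Mef2d is found in adult muscle, had 10.9 FPKM in the Null pool and 18.0 FPKM in the WT pool, or 60.2% of WT. Mef2c, which besides muscle is prominent in endothelium, nerve and B cells, had 7.77 FPKM in the Null pool and 7.47 FPKM in the WT pool. Mef2b, known chiefly from germinal centre B cells, was scarce at 0.290 FPKM in the Null pool and 0.170 FPKM in the WT pool. In the RefSeq annotation its locus overlaps 1 other protein-coding gene, so its value is uncertain. Mef2c overlaps 2 lncRNA genes, Mef2d 1 and Pax7 1, and strand use in the counting is not stated.

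The family's makeup differed with these levels. The 4 Mef2 genes summed to 37.9 FPKM in the Null pool and 65.7 FPKM in the WT pool. Mef2d made up 50.1% of the sum in Null and 60.9% in WT, Mef2a 28.6% in Null and 27.4% in WT, and Mef2c 20.5% in Null and 11.4% in WT. The level of Mef2d was 2.45 times that of Mef2c in Null and 5.36 times in WT. The order Mef2d, Mef2a, Mef2c, Myf6 was the same in both pools, and below it the order differed: Mef2b stood next in Null, and Myod1 in WT.

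**Figure D2:**
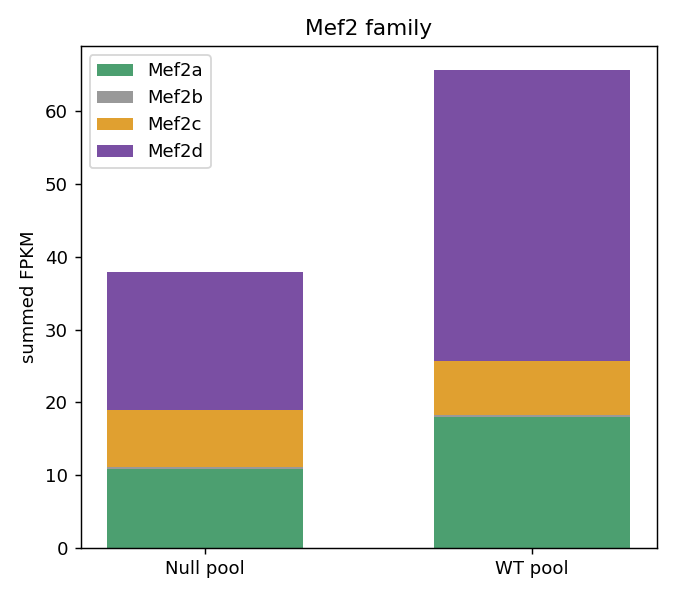
Summed FPKM of the 4 Mef2 genes in the Null pool (left) and the WT pool (right), stacked by gene from an axis that starts at 0. The sum is 37.9 in Null and 65.7 in WT, the Mef2c segment is nearly the same in both, and Mef2b is too small to see.

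Differences were then set against all genes. The measure was log2((Null + 1)/(WT + 1)) of FPKM, over the 11597 genes whose mean reached 1 FPKM, and a gene was counted as differing at 2-fold or more. It understates differences of low genes. The 4 members that pass are Myf6, Mef2a, Mef2c and Mef2d, and the lowest of them has a mean of 2.25 FPKM, while the highest of the other 6, Myod1, has 0.297 FPKM. Of all genes 48.6% had a mean under 1 FPKM. The median log2 ratio of all genes was 0.0056. Mef2d had a log2 ratio of -1.04, with 168 of the 11597 genes lower (1.45%). Myf6 had -0.70, with 4.23% of genes lower, and Mef2a -0.68, with 4.48% lower. Mef2c had 0.051, close to the middle of all genes, and -0.14 when the columns were scaled to equal sums, a setting that moved the median of all genes to -0.18.

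Mef2d was thus the 1 member lower by 2-fold, of 4 measured, against 191 genes or 1.65% of all genes measured. None was higher by 2-fold, against 252 genes or 2.17%. The call of Myf6 depends on the pseudocount: without one its log2 ratio was -1.03, so that 2 of the 4 were lower by 2-fold, against 2.74% of all genes measured, and 0 higher, against 3.43%. With a limit of 1.5-fold, 3 of the 4 were lower, against 6.75% of all genes, and 0 were higher, against 7.87%. The median of the 4 was -0.69, and that of all 10 without the limit was -0.16. Among the 6 members under the limit, 5 were lower in Null by any amount, where 47.3% of the 5751 genes in that range were. With a pseudocount of 0.1 FPKM in place of 1, the log2 ratio of Myod1 was -1.11, that of Myog -0.66, that of Myf6 -0.98 and that of Mef2b 0.53.

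**Figure D3:**
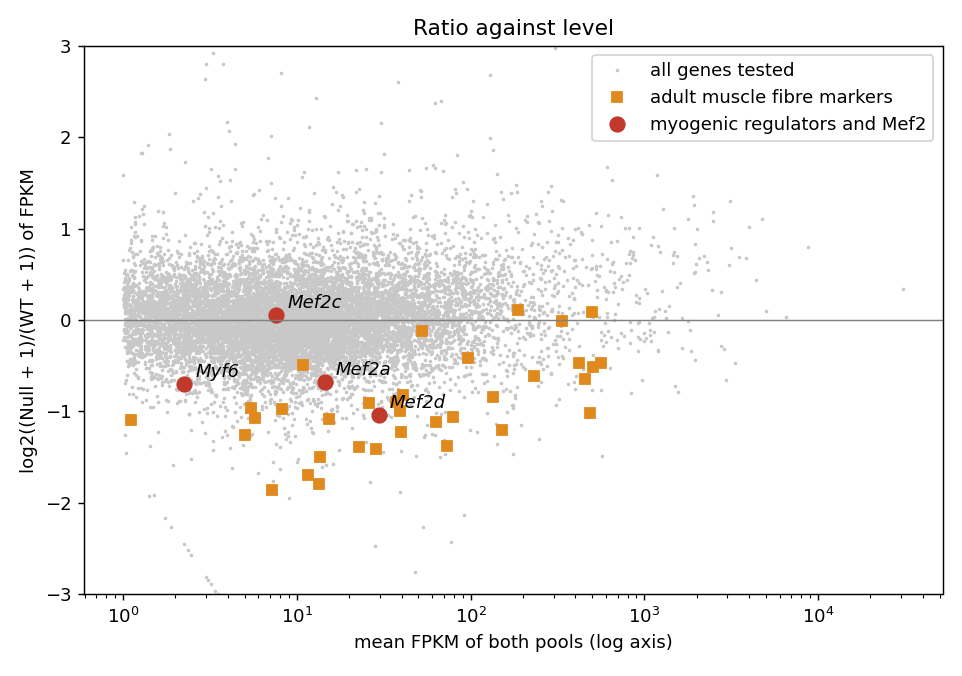
Log2((Null + 1)/(WT + 1)) against the mean FPKM of both pools (log axis) for all genes measured (grey), adult muscle fibre markers (orange squares) and the 4 measured myogenic and Mef2 genes (red). Mef2d, Mef2a and Myf6 lie at the lower edge of the grey cloud among the fibre markers and Mef2c in its centre, and 66 genes lie outside the plotted range.

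Genes of skeletal muscle fibres were lower in the Null pool along with Mef2d, Mef2a and Myf6. Of 34 adult fibre markers, 32 had a lower value in Null, against 49.4% of all genes measured, and 16 were lower by 2-fold or more, against 1.65%. Their median log2 ratio was -0.98. Their summed level was 3798 FPKM in the Null pool and 5532 FPKM in the WT pool, with single genes between 0.346 and 513 FPKM in Null and between 1.87 and 655 FPKM in WT, so none was at 0. The fast troponin Tnni2 was the most abundant by the mean of both pools, at 472 FPKM in Null and 655 FPKM in WT, while Mylpf, a fast myosin light chain, was higher in Null at 513 FPKM, against 481 FPKM in WT. The fast myosin Myh2 was lowest in ratio at 2.53 FPKM in Null and 11.8 FPKM in WT, and Myl1, a fast myosin light chain, highest in ratio at 194 FPKM in Null and 179 FPKM in WT.

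As a share of WT, the median fibre marker was at 48.5% in Null, with a range of 18.5% to 108%. Myf6 at 48.9% had 17 of the 34 markers below it, Mef2d at 47.5% had 16, and Myog at 49.9% had 19. Mef2a at 60.2% had 23 below it, Myod1 at 34.4% had 6, and Mef2c at 104% had 32. In bulk tissue a smaller number of fibres in the sample and less RNA per cell cannot be told apart, and the part of fibre content in the lower values of the regulators was not tested. Markers of heart muscle were near 0 in both pools: 7 of 7 were at or below 0.510 FPKM in Null and 0.251 FPKM in WT, with Nppb, Myl7 and Nkx2-5 listed at 0 in each.

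The muscle microRNAs, several of which lie next to or inside muscle genes and are switched on by Myod1, Myog and Mef2 factors, stood lower as the fibre genes did, in separate libraries. miR-133a-3p had 11510 RPM in the Null library and 31477 RPM in the WT library. miR-1a-3p had 289 RPM in Null and 1029 RPM in WT, and miR-133b-3p had 127 RPM in Null and 689 RPM in WT. miR-206-3p, made in the same genomic neighbourhood as miR-133b-3p, had 14.7 RPM in Null and 63.1 RPM in WT, a ratio of 0.232 (exact Clopper-Pearson interval 0.206 to 0.261). For each of these 4 the interval of the ratio reached no higher than 0.367, with 1 library per genotype.

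miR-208b-3p and miR-499-5p sit in introns of myosin heavy chain genes of slow fibres. miR-208b-3p had 64.0 RPM in Null and 435 RPM in WT, a ratio of 0.147 (0.139 to 0.155). miR-499-5p had 14.7 RPM in Null and 69.8 RPM in WT, a ratio of 0.211 (0.187 to 0.236). miR-486-5p, found in muscle but very abundant in red cells as well, had 24695 RPM in Null and 20866 RPM in WT. Of the 7 measured muscle microRNAs 6 were lower by 2-fold or more, against 4.64% of the 323 microRNAs whose mean reached 10 RPM, and 0 were higher, against 0.619%. Their median log2 ratio, with 1 RPM added to each value, was -2.03, and that of all 323 was 0.17. miR-208a-3p is not among the 386 microRNAs listed.

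**Figure D4:**
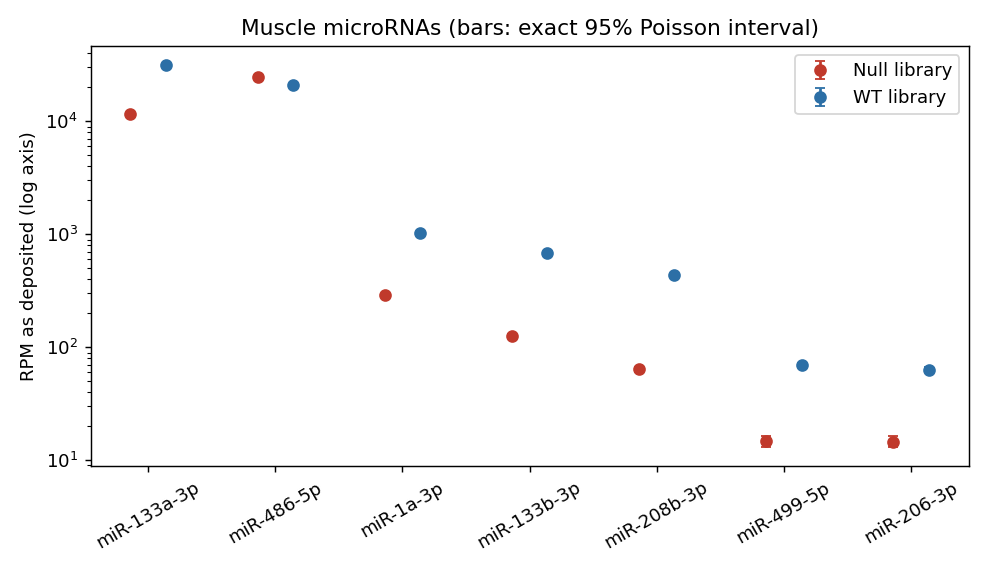
Muscle microRNAs in the Null library (red, left) and the WT library (blue, right), in RPM as deposited on a log axis, with exact 95% Poisson intervals that cover counting error only. Each of them is lower in Null except miR-486-5p, at 24695 RPM in Null and 20866 RPM in WT.

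Markers of satellite cells and myoblasts were a mixed group. Of 13 markers 7 were under the limit of 1 FPKM, a share near the 48.6% of all genes, and the highest value among them was 0.436 FPKM. All 7 were lower in Null by any amount, where 47.3% of genes in that range were. Among them are the defining genes Cdh15, the cadherin of muscle progenitors, at 0.107 FPKM in Null and 0.269 FPKM in WT, and Calcr, a receptor of resting satellite cells, at 0.0211 FPKM in Null and 0.04995 FPKM in WT. The 6 above the limit, which other cells also express, had a median log2 ratio of -0.33, and all 13 one of -0.16 without the limit. Dag1, which encodes dystroglycan, was the most abundant and lowest in ratio at 32.1 FPKM in Null and 77.8 FPKM in WT. Vcam1, also an endothelial adhesion molecule, was highest in ratio at 2.70 FPKM in Null and 1.71 FPKM in WT.

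Genes that the myogenic factors switch on in differentiating myoblasts ranged from 0 to above 90 FPKM in each pool. Of 18, 9 were under the limit, a share near the 48.6% of all genes, and their highest value was 0.302 FPKM. Chrng, the fetal acetylcholine receptor subunit, and Tmem8c, the fusion protein also called myomaker, were listed at 0 in both pools. The 9 measured had a median log2 ratio of -0.30 (-0.15 over all 18 without the limit, -0.46 with columns scaled to equal sums). With the pseudocount of 1 FPKM, 0 were higher by 2-fold, against 2.17% of all genes measured, and 0 lower, against 1.65%. Des, the muscle intermediate filament desmin, was the most abundant at 90.2 FPKM in Null and 120 FPKM in WT. Kbtbd10, a sarcomere-associated kelch protein, was lowest in ratio at 8.56 FPKM in Null and 17.4 FPKM in WT, and Myl4, an embryonic and atrial light chain, highest at 7.18 FPKM in Null and 6.61 FPKM in WT. The count of genes lower by 2-fold depends on the pseudocount. With 0.1 FPKM, Kbtbd10 had -1.01 and Actc1 -1.11, and 297 of all 11597 genes were then lower by 2-fold.

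The 3 E proteins, which pair with Myod1 and its relatives to bind DNA, summed to 43.4 FPKM in the Null pool and 43.7 FPKM in the WT pool. Their median log2 ratio was 0.027, and -0.17 with columns scaled to equal sums, so its sign depends on the scaling. Tcf4 had 19.6 FPKM in Null and 15.3 FPKM in WT, and Tcf12 had 13.1 FPKM in Null and 17.9 FPKM in WT. Of 17 genes whose products inhibit the myogenic factors, 15 were measured, and their median log2 ratio was 0.27, or 0.48 with a pseudocount of 0.1 FPKM and 0.16 with equal sums. By 2-fold, 1 was higher, against 2.17% of all genes, and 1 lower, against 1.65%. Id2, which sequesters E proteins, was at 41.0 FPKM in Null and 17.6 FPKM in WT (log2 ratio 1.18). Id1, the most abundant by the mean of both pools, was at 98.3 FPKM in Null and 68.2 FPKM in WT. Bhlhe40, a repressor that also serves the circadian clock and the most abundant inhibitor in WT, was at 36.3 FPKM in Null and 88.5 FPKM in WT (-1.26).

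Cofactors of Mef2 proteins were mostly somewhat lower. Of 16 measured, 13 had a log2 ratio below 0, against 49.4% of all genes measured. With the pseudocount of 1 FPKM, 0 were higher by 2-fold, against 2.17% of all genes measured, and 0 lower, against 1.65%. That count depends on the pseudocount. With 0.1 FPKM, Hdac4 had -1.50 and Vgll2 -1.30, and 297 of all 11597 genes were then lower by 2-fold. The median of the 16 was -0.32, and -0.52 with columns scaled to equal sums. Hdac4, a class IIa deacetylase that silences Mef2, was lowest in ratio at 0.658 FPKM in Null and 2.04 FPKM in WT. Hdac7, its relative in endothelium, was highest in ratio at 12.4 FPKM in Null and 11.9 FPKM in WT. Vgll4, a TEAD partner, was the most abundant by the mean of both pools, at 24.1 FPKM in Null and 33.0 FPKM in WT, while in Null the deacetylase Hdac5 was above it at 25.3 FPKM, against 30.5 FPKM in WT.

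**Figure D5:**
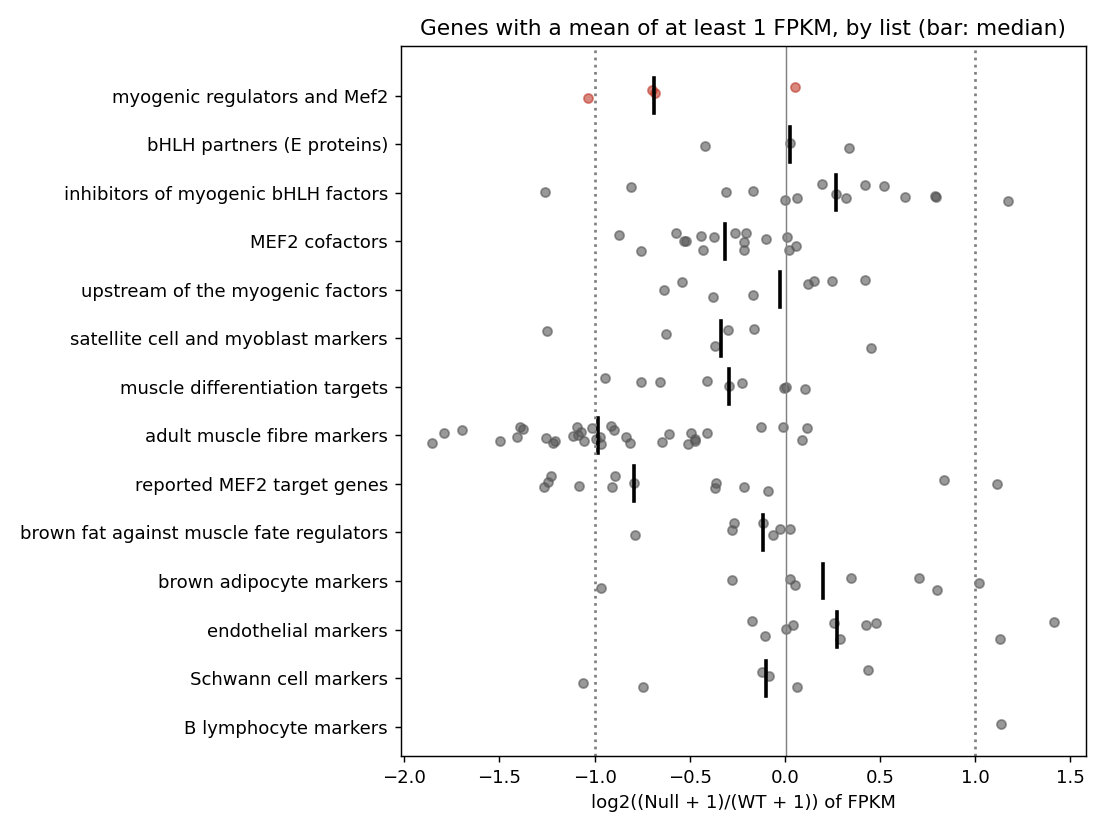
Log2((Null + 1)/(WT + 1)) of FPKM for each gene measured, by list, with the myogenic regulators and Mef2 in red at the top. Black bars are medians of lists with at least 3 such genes, the grey line is the median of all genes and the dotted lines are 2-fold. The medians of fibre markers (-0.98) and Mef2 targets (-0.79) lie lowest. Among the Mef2 targets, Hrc and the fibre genes lie low and the others between -0.37 and 1.12.

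Genes reported as Mef2 targets differed in both directions. Of 13 measured, 4 were lower by 2-fold or more, against 1.65% of all genes measured, and 1 was higher, against 2.17%. The median was -0.79, or -0.37 over all 15 without the limit. Hrc, a calcium store protein of muscle, was lowest in ratio at 5.32 FPKM in Null and 14.2 FPKM in WT. Jun, an immediate early gene expressed in most cells, was highest in ratio at 43.8 FPKM in Null and 19.7 FPKM in WT. Slc2a4, the insulin-responsive glucose carrier of both muscle and fat, was the most abundant at 271 FPKM in Null and 288 FPKM in WT. The fibre genes Xirp1, Xirp2, Myoz2, Myom1, Myom2 and Pdlim3, which were named after their values were seen, had log2 ratios between -1.25 and -0.79. Apart from Hrc, the other measured targets lay higher. Klf4 had -0.37, Klf2 -0.36, Ppargc1a -0.21, Slc2a4 -0.088, Nr4a1 0.83 and Jun 1.12. This split was made after the values were seen, so it cannot account for the low median of the list, and the part of muscle genes in that median was not tested.

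Upstream of the myogenic factors stand homeobox factors and their Eya partners, surface receptors such as Cdon, and TEAD factors. Of 17 such genes 9 were under the limit, a share near the 48.6% of all genes, and 8 were measured, with a median log2 ratio of -0.023. By 2-fold, 0 were higher, against 2.17% of all genes measured, and 0 lower, against 1.65%, so these counts are near those shares. That median was -0.16 with equal sums and 0.15 with a limit of 5 FPKM. Tead1 was lowest in ratio at 4.61 FPKM in Null and 7.70 FPKM in WT. Cdon, a receptor that promotes myogenesis and a reported target of the deleted cluster, was at 2.00 FPKM in Null and 3.36 FPKM in WT (-0.54). Runx1t1, a corepressor also reported as a target, was scarce at 0.227 FPKM in Null and 0.291 FPKM in WT.

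The factors that steer precursors to brown fat instead of muscle differed little apart from Ppara. The median log2 ratio of 7 measured was -0.12, and -0.31 with equal sums. Prdm16, the switch between these fates, had 6.58 FPKM in the Null pool and 6.91 FPKM in the WT pool (-0.062). Pparg, the master regulator of fat cells, had 237 FPKM in Null and 233 FPKM in WT. Ppara, a fatty acid receptor reported to control the cluster, was lowest in ratio at 41.2 FPKM in Null and 71.9 FPKM in WT (-0.79). The tissue carried its defining markers in both pools: Ucp1 was at 2487 FPKM in Null and 3016 FPKM in WT, and Fabp4, the most abundant of 8 markers, at 34679 FPKM in Null and 27295 FPKM in WT. The median of the 8 was 0.20, and -0.014 with equal sums.

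Cell types that use Mef2c or Pax3 outside muscle were checked beside these genes. The 10 endothelial markers had a summed level of 508 FPKM in Null and 355 FPKM in WT and a median log2 ratio of 0.28 (0.071 with equal sums), none of them at 0. Egfl7 was the most abundant at 141 FPKM in Null and 63.7 FPKM in WT, Cldn5 highest in ratio at 76.1 FPKM in Null and 27.9 FPKM in WT, and Kdr lowest at 35.6 FPKM in Null and 40.3 FPKM in WT. The 6 B lymphocyte markers summed to 3.86 FPKM in Null and 1.02 FPKM in WT, with Cd79b at 1.97 FPKM in Null and 0.356 FPKM in WT. The other 5 were under the limit of 1 FPKM, as were 48.6% of all genes, and reached at most 0.691 FPKM, so the sums rest on low values. The 8 Schwann cell markers summed to 169 FPKM in Null and 164 FPKM in WT, with S100b, which fat cells express too, at 94.3 FPKM in Null and 69.4 FPKM in WT. The part of these cells in the level of Mef2c, Mef2b or Pax3 was not tested. The 69 measured ribosomal protein genes, whose mRNAs are short, had a median log2 ratio of 0.90 with 64 higher in Null, where 49.4% of all genes measured were lower by any amount. The part of mRNA length or RNA quality in the values of the regulators was not tested.

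Promoter windows of the regulators, from 250 bases before the start to 50 after it, were available in RefSeq (GRCm38.p6) for 7 of the 10 genes, in 9 windows. They were searched for the E-box CANNTG, which the helix-loop-helix factors bind, and for the 10-letter Mef2 consensus. Both motifs read the same on either strand. Of the 9 windows 4 held an E-box and 1 the Mef2 consensus, against 72.3% and 3.19% of all 32851 windows. In 32 windows of 26 fibre markers, a list that was mostly lower in Null, 26 held an E-box (81.2%) and 4 the Mef2 consensus (12.5%). A match is a description of the letters and not a bound site. Only exact matches were counted: the Myog window holds ctatatttat, which misses the Mef2 consensus at its last letter alone. Besides Myog, the windows that held an E-box were of Mef2b and Mef2c. No window was available for Myod1, Myf6 and Pax3. Of the helix-loop-helix genes only Myf5 and Myog were thus searched, and Myf5 had no E-box. The window of Myog, with its E-boxes at -138 to -133 and -12 to -7, is shown with the motifs in capitals. That of Mef2a, with the Mef2 consensus CTAAAAATAG at -2 to 8, is shown likewise, and both are examples only.

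Myog, chr1:134289754-134290053, + strand: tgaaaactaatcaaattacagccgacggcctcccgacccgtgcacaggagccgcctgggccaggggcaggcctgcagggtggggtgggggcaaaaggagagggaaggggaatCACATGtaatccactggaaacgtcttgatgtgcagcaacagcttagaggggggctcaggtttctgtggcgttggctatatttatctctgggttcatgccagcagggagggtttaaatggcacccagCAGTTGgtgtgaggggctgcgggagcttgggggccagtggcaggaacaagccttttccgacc
Mef2a, chr7:67372809-67373108, - strand: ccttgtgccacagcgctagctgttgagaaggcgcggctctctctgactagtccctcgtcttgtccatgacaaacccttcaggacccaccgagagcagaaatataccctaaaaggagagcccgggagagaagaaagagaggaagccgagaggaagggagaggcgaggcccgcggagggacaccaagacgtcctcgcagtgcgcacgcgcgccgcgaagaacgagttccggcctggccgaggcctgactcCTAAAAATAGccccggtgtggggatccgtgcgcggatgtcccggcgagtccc

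The position in these windows is counted from the annotated start, with no position 0. Mef2a, whose window holds the Mef2 consensus, was at 10.9 FPKM in Null and 18.0 FPKM in WT, and Myog, whose window holds E-boxes, at 0.136 FPKM in Null and 0.272 FPKM in WT.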

How the data were processed

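Per the labels' protocols, poly(A) RNA was made into TruSeq libraries and sequenced on an Illumina instrument, and small RNA libraries were made with an Illumina kit. Per the submitters' processing notes, CASAVA, TopHat, BWA, edgeR, DESeq and mm9 were used, with roles, versions and annotation not given in the sources used here. Gene levels were deposited by the authors as FPKM, 1 column for each genotype, combining 3 libraries in a way not stated. The columns sum to 590327 in Null and 508701 in WT. Among 676 genes above 0 and under 0.05 FPKM in both pools, 10 different log2 ratios were each shared by 10 or more genes, so no single step per column, and no depth, could be recovered. The microRNA values, headed RPM, were deposited as a signal whose columns sum to 1578515 in Null and 1559381 in WT, more than the name RPM allows. All were whole multiples (within 0.1) of a step of 0.0411 in Null and 0.0438 in WT. By these steps the listed microRNAs held 38435013 reads in Null and 35611070 in WT, from which exact 95% intervals were computed with SciPy 1.17.1.

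Samples were grouped by genotype. A linear model would have needed a column per library, so differences are values without a test. The members, lists and measures were chosen with earlier results of these data known. Genes named are all 10 members and, per list, the most abundant and the highest and lowest ratio, with Runx1t1, Prdm16 and Cdon, and the muscle and cluster microRNAs; other list genes were named after their values were seen, and some that the rule selects are not reported here. No gene was named for a pattern like a member's, since a pair of pooled values gives none. Alternatives were a pseudocount of 0.1 or, added after seeing the data, none, a limit of 5 FPKM or none, 3 scalings (median, quantile, equal sums), and 1.5-fold. The calculation was tested on simulated data. Python 3.11.15 and pandas 2.3.3 were used.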

Additional observations from a re-analysis of the deposited data

How the results depend on the processing

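No paired analysis was possible because each genotype has a single combined column, and for the same reason no replicate could be left out. A correction by protein length was not run, since no protein table was used here. A ratio was taken as unmoved within 0.1 on the log2 scale, as no spread exists. The log2 ratio of Mef2d ranged from -1.24 to -1.04 over 7 alternatives, that of Mef2a from -0.88 to -0.66, and that of Myf6 from -1.03 to -0.70 over 6. That of Mef2c ranged from -0.14 to 0.10, so its sign is not settled. The median over the measured members, -0.69, was -0.86 with a pseudocount of 0.1 FPKM, -0.16 with no filter on low values, where all 10 enter, and -0.86 with equal sums. With a limit of 1.5-fold, 3 members were lower in place of 1. For all genes, 913 were then higher and 783 lower, in place of 252 and 191. With equal sums, which moved the median of all genes to -0.18, 147 were higher and 327 lower, so the share that was higher was 31.0% in place of 56.9%. With a pseudocount of 0.1 FPKM 362 were higher and 297 lower, and with no pseudocount, a setting added after seeing the data, 398 were higher and 318 lower, 2 members were lower and the members' median was -0.88. The muscle microRNA median, -2.03, was -2.21 relative to all microRNAs. Relative to the median of all genes in that setting, Mef2d was at -1.06, Mef2a at -0.70 and Myf6 at -0.66 with equal sums. The median of brown adipocyte markers, 0.20, was -0.084 with quantile normalization and -0.014 with equal sums; the cause was not tested. The unknown mRNA depth limits what can be said of Pax3, Pax7, Myf5, Myod1, Myog and Mef2b.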
